A study of Gallus gallus with 18 samples.

Results

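The proteasome subunit genes were taken as all probesets whose annotated gene symbol begins with PSMA, PSMB, PSMC, PSMD, PSME, PSMF or PSMG. This rule, which used names and no measured value, gave 64 of the 38535 probesets of the Affymetrix chicken GeneChip. Of these, 58 read a single gene and together represented 37 genes, and 6 read a proteasome gene and another gene at once. Each array came from 1 chicken embryo at Hamburger-Hamilton stage 4 (HH4, 1 day old), the gastrula stage, kept 3 h in culture. A tissue square of 400 µm was excised from each, over the streak between 70% and 90% of its length. The study compared 9 female (ZW) with 9 male (ZZ) embryos to find sex-dimorphic expression. The authors took sex from the W-linked gene HINTW, so its difference (25606 to 32838 in females and 5.08 to 75.1 in males) was fixed by that choice. The methods state that electroporated embryos were included, without a label to tell which.

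The proteasome is the protease that degrades proteins tagged with ubiquitin. Its core particle is a barrel of stacked rings of alpha (PSMA) and beta (PSMB) subunits, with the proteolytic sites inside the beta rings. The regulatory particle caps the barrel. Its base holds a ring of ATPases (PSMC) that unfold the substrate, and its lid holds most of the remaining PSMD subunits, among them the enzyme that removes the ubiquitin chain. Dedicated chaperones (PSMG for the core, PSMD5, PSMD9 and PSMD10 for the base) assist assembly. Separate caps (PSME) and an inhibitor (PSMF1) modulate the core. These roles are known mainly from yeast and mammals.

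Values are MAS5 signals on the linear scale of each array, which has no unit of its own. A detection level of 128 was used, and a probeset was tested if at least 9 embryos reached it, which kept 14598 probesets. Between 13854 and 15324 probesets reached the level in each embryo, and GAPDH had 3'/5' signal ratios from 2.19 to 4.06. Female 9 and males 5, 6 and 8 stood apart on the first principal component of all tested probesets (17.2% of the variance). The count of calls, the median SDs, the balance, the correlations and some gene estimates are therefore also given without them. Of the 14 markers of streak, epiblast, endoderm and node, TBXT (21977 to 39141), WNT8A, SOX17, FOXA2, CHRD, SOX3, OTX2 and CDH1 were over the level in all 18 embryos, EOMES and FGF8 in 16, TBX6 in 11, SOX2 in 8, MIXL1 in 7 and GSC in 4. Of 13 markers of other tissues on the array, the yolk sac gene APOA1 (964 to 3042) and the muscle gene ACTA1 were over it in 18, the neuronal gene TUBB3 in 15, TAL1 and DDX4 in 9, TTR in 5 and HBAD in 1. The other 6 (HBZ, HBA1, AFP, APOB, DAZL and SNAP25) were over it in 0. In such pieces of tissue, fewer cells of a type and less RNA per cell cannot be told apart.

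Proteasome genes were measured broadly and mostly with bright signals. Of the 58 single-gene probesets, 49 passed the filter, and every one of the 37 genes had at least 1 probeset among them. The 9 that did not pass belonged to 8 genes (PSMA2, PSMA5, PSMB1, PSMD7, PSMD13, PSMD14, PSME3 and PSMG3), each of which had another probeset that did. Of the 9, 8 reached the level in 0 embryos, and the second PSMD7 probeset reached it in 5. For each gene the probeset with the highest mean log2 signal stands for it below. These reached the detection level in all 18 embryos for 35 genes, and in 17 for PSMB5 and PSMD2. Mean signals were over 5000 for 21 genes and under 1000 for 6. Signals of different probesets depend on their probes, so they do not rank the genes by mRNA level. One gene that matches the rule by its letters, PSMC3IP, encodes a meiotic recombination factor and no subunit. It is kept in the counts and figures of 37 genes below, and is left out of the core and regulatory averages. None of the 37 genes lies on Z or W, and they are spread over 20 chromosomes, with 7 on chromosome 5 and 5 on chromosome 27.

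**Figure D1:**
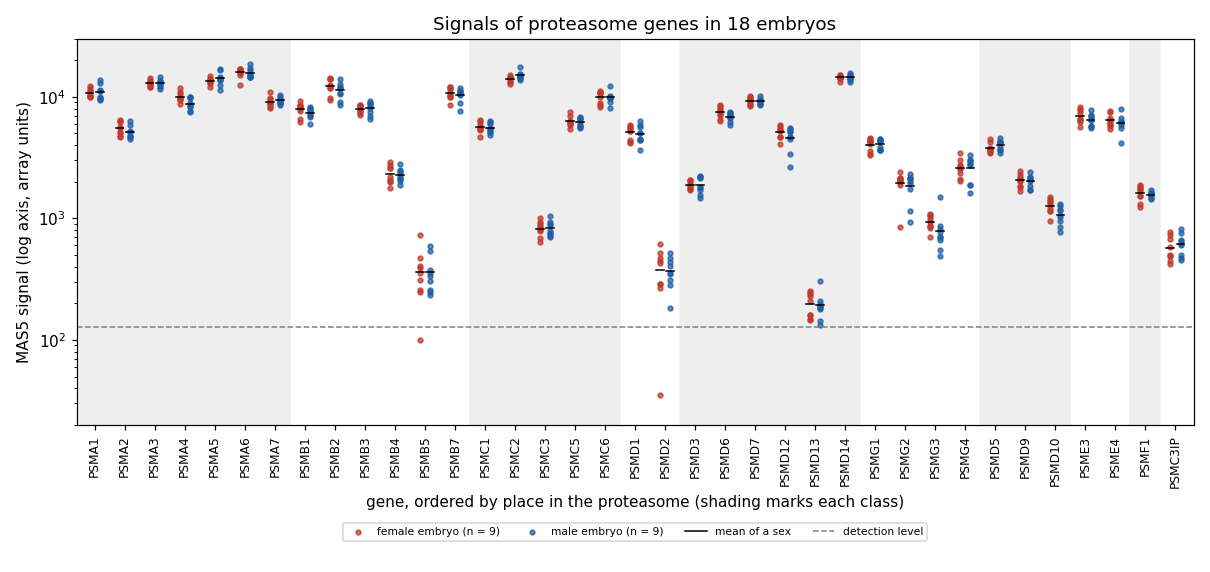
MAS5 signal (log axis) of the 37 genes in 9 female (red) and 9 male (blue) embryos, with the mean of each sex as a bar and the detection level of 128 as a dashed line. The sexes overlap for every gene, and only 1 embryo of PSMB5 and 1 of PSMD2 lie under the detection level.

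Expression of the core particle was close in the 2 sexes. Among the 7 PSMA genes, log2 differences (male minus female) ran from -0.20 to 0.06 with a median of 0.00, and 4 were above 0 in males. Among the 6 PSMB genes they ran from -0.12 to 0.08, and 2 were above 0. In limma, 0 of the 49 tested proteasome probesets passed an adjusted p of 0.05, where 2.75% of all tested probesets did (2.47% male-higher and 0.281% female-higher). Most of those are on Z. Among the 11106 tested autosomal probesets, to which all proteasome probesets belong, the share was 0.18%, so 0 of 49 was near the background. Without the 4 embryos that stood apart it was again 0 of 49. At an unadjusted p under 0.05 there were 2 of 49 (4.08%), against 8.54% of all tested and 5.14% of autosomal probesets. One of these was PSMA4, an alpha ring subunit named here after its values were seen. Its signal was 8792, 9783 and 11716 (lowest, median and highest) in females and 7519, 8549 and 10048 in males. The males were shifted to lower values, but the groups overlapped. The difference was -0.20 ± 0.078 (SE) on the log2 scale, with an adjusted p in limma of 0.372, the lowest among proteasome probesets.

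Of the 3 catalytic beta subunits, PSMB5 and PSMB7 were analysed here. PSMB7, which carries the trypsin-like activity, had signals of 8615, 10593 and 12149 in females and 7715, 10544 and 11764 in males. The ranges nearly coincided (-0.06 ± 0.090, adjusted p = 0.935). PSMB5, which carries the chymotrypsin-like activity, was dim, with 99.6, 357 and 727 in females and 236, 333 and 592 in males. Its highest embryo was 7.29 times its lowest, so the interval of the sex difference was wide, from -0.52 to 0.68 (adjusted p = 0.980). A dimmer PSMB5 probeset differed in the opposite direction, at -0.39 (adjusted p = 0.858), and without female 8 the first was at -0.13.

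The regulatory particle also held no probeset past the test. The rule gave no probeset named PSMC4, PSMD8 or PSMD11, and PSMD4 only in probesets shared with PIP5K1A, so the particle was covered in part. Differences of the 5 PSMC ATPases analysed ran from -0.03 to 0.10, and those of the 6 lid genes analysed from -0.20 to 0.00. PSMC2, an ATPase of the base, had signals of 12779, 14309 and 14996 in females and 13852, 14978 and 17621 in males. Males 1, 4, 6 and 9 were above the highest female, with male 1 the highest embryo. The other males lay within the female range (0.10 ± 0.061, adjusted p = 0.734). PSMD14, the deubiquitinase of the lid, had 13253, 14407 and 15249 in females and 13268, 14473 and 15702 in males. Its 18 embryos differed by 1.18-fold at most, and the sexes by 0.00 ± 0.056 (95% interval -0.11 to 0.12). PSMD7, which pairs with PSMD14 in the lid, had 8435, 9508 and 10201 in females and 8555, 9254 and 10132 in males, again with full overlap (-0.01 ± 0.062, adjusted p = 0.986).

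PSMD2, a scaffold subunit of the base, was the least uniform gene of all. Its probeset gave 35.4, 430 and 612 in females and 182, 358 and 517 in males. Female 4 alone was under the detection level, while the other 8 females lay between 267 and 612. A second PSMD2 probeset gave 386 in female 4, inside its own range of 183 to 454 over all embryos, so the low value was not shared by both readings of the gene. The sex difference of the first probeset was 0.21 ± 0.41 and that of the second 0.10 (adjusted p = 0.951 and 0.922). The direction of the first rested on female 4, since without it the estimate was -0.18.

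The estimates farthest from 0 among all 37 genes were those of the chaperones PSMG3 and PSMD10, both with lower estimates in males. Neither passed the test. PSMG3, a chaperone of the alpha ring, had 702, 937 and 1095 in females and 491, 704 and 1491 in males. Apart from male 9, which was the highest of all 18, the males lay at or under 861. The difference was -0.31 ± 0.16 (adjusted p = 0.649). PSMD10 (gankyrin), a chaperone of the base and the other gene with an unadjusted p under 0.05, had 948, 1308 and 1500 in females and 770, 1060 and 1312 in males. The groups overlapped over most of the male range (-0.26 ± 0.11, adjusted p = 0.468).

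PSMG2, which acts with PSMG1, had 857, 2086 and 2426 in females and 937, 2041 and 2312 in males. Its embryos fell into 2 separate ranges, chosen here after the values were seen. Female 5, male 8 and male 9 gave 857 to 1148, and the other 15 gave 1754 to 2426. The sex difference was -0.10 ± 0.20 (adjusted p = 0.951), and it moved with these embryos, to -0.25 without female 5, 0.01 without male 8 and -0.03 without male 9. Its partner PSMG1 showed no such gap, with 3340, 4265 and 4578 in females and 3642, 4316 and 4504 in males (0.02 ± 0.084, adjusted p = 0.986). PSMG4, the partner of PSMG3, had 2020, 2620 and 3422 in females and 1607, 2809 and 3298 in males, so the groups overlapped (-0.04 ± 0.14, adjusted p = 0.976). Its dimmer tested probesets were at -0.03 and -0.25 (adjusted p = 0.989 and 0.912). The latter spread widely, from 399 to 2113 in females and from 387 to 1334 in males.

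The activators and the inhibitor did not differ beyond their spread. PSME3, the nuclear cap of the core, had 5631, 6630 and 8315 in females and 5531, 6449 and 7869 in males (-0.10 ± 0.090, adjusted p = 0.865). PSME4, another cap, had 5473, 6211 and 7705 in females and 4192, 6189 and 7971 in males (-0.07 ± 0.10, adjusted p = 0.928). PSMF1, an inhibitor of the core in vitro, had 1251, 1692 and 1880 in females and 1443, 1577 and 1703 in males (-0.03 ± 0.084, adjusted p = 0.970). For PSMF1 the males spanned less than the females and lay inside their range. No probeset of PSME1 or PSME2, the immune-inducible caps of mammals, was analysed here.

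Across the 37 genes the median difference was -0.02, beside -0.02 over tested autosomal probesets. Females had the higher estimate for 24 genes (64.9%, against 54.8% of autosomal probesets). The groups overlapped for all 37. The share of all tested probesets with overlapping groups was not computed, so this is not shown to be particular to proteasome genes. Over the 49 probesets the median absolute difference was 0.05, beside 0.10 over autosomal probesets. A missed threshold does not show equality, but the intervals were narrow. The 95% interval lay within 1.5-fold in either direction for 34 of 37 genes (78.9% of autosomal probesets), the exceptions being PSMB5, PSMD2 and PSMG3. It lay within 1.2-fold for 21 genes (19.0% of autosomal probesets). These autosomal values were not matched for brightness. By signal, 21 of the 37 genes were among the brightest 10% of tested probesets. The median SD within a sex was 0.15 there, beside 0.30 over all tested probesets. The narrow intervals are therefore not shown to be particular to proteasome genes. For scale, the median difference of the 502 tested probesets on Z was 0.59, and 35 of the 37 intervals ended below that value, all but those of PSMB5 and PSMD2. Of the 6 probesets that also read another gene, 3 were tested and 0 called, with differences of -0.25, 0.10 and 0.03. In 10 genes another 12 single-gene probesets were tested, and 7 of the 12 differed in the same direction as the brighter one.

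**Figure D2:**
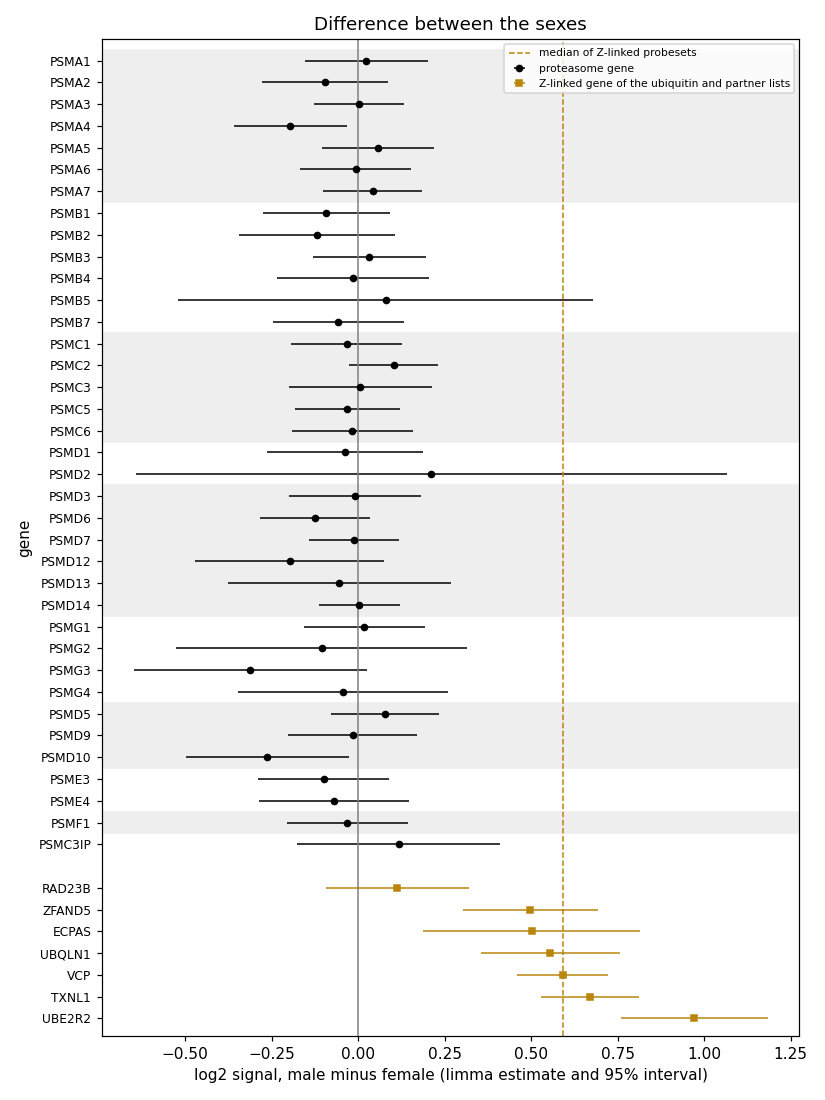
Log2 difference between male and female signal, with its 95% interval from limma, for the 37 proteasome genes (black, shaded by class) and for 7 Z-linked genes of the ubiquitin and partner lists (yellow). Differences of the proteasome genes ran from -0.31 (PSMG3) to 0.21 (PSMD2, which is at -0.18 without female 4), and the Z-linked median of 0.59 is dashed.

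Genes that work with the proteasome were compared from lists made by function, with earlier results of these data known. Among 11 tested partners (of 14 listed), 0 were called by their brightest probeset, and 10 of the 11 lie outside Z, where 0.18% of autosomal probesets were called. ECPAS, a proteasome-associated scaffold and the single tested partner on Z, had 624, 837 and 1112 in females and 954, 1180 and 1987 in males. Most males were above most females, with some overlap. The difference was 0.50 ± 0.15 and did not pass the test (adjusted p = 0.108), whereas 2 of its 3 dimmer probesets passed at 0.67 and 0.76 (adjusted p = 0.00151 and 8.8e-05) and the other was at -0.07. NGLY1, the glycanase that processes the transcription factor of the proteasome genes, had a difference of -0.37 ± 0.10 (adjusted p = 0.0794), and its dimmer probesets were at -0.24 and 0.02 (adjusted p = 0.803 and 0.993). PAAF1, which binds the ATPases, was at -0.22 ± 0.073 (adjusted p = 0.186), with a dimmer probeset at -0.21 (adjusted p = 0.856).

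Upstream of the proteasome, the list of ubiquitin enzymes and shuttle factors held 39 genes, 28 of them tested. Of these, 5 were male-higher (17.9%, beside 2.47% of all tested probesets) and 0 female-higher. The list was made with earlier results of these data known, so this share cannot show an excess. The 5 were VCP, UBE2R2, UBQLN1, TXNL1 and ZFAND5, all on Z, where 6 of the list lie. Of the 22 tested genes outside Z, 0 were called, near the autosomal share of 0.18%. VCP, the segregase that extracts ubiquitinated proteins for degradation, had 12400, 13588 and 15494 in females and 18550, 20672 and 22632 in males, without overlap. Its difference was 0.59 ± 0.063 (adjusted p = 3.9e-06). UBE2R2, a ubiquitin-conjugating enzyme, was male-higher by 0.97 ± 0.10 (adjusted p = 3.05e-06), and TXNL1, a redox protein bound to the regulatory particle, by 0.67 ± 0.067 in the single probeset annotated to it (adjusted p = 2.09e-06). Probesets without a gene symbol were not searched for TXNL1, so this value does not stand for its total expression. UBQLN1, a shuttle receptor, was at 0.55 ± 0.096 (adjusted p = 0.000991) and ZFAND5, a stimulator of the proteasome, at 0.50 ± 0.093 (adjusted p = 0.00217), with their other tested probesets in the same direction. The remaining Z-linked gene, the shuttle receptor RAD23B, was at 0.11 ± 0.099 (adjusted p = 0.859). Of all tested probesets on Z, 57.0% were male-higher.

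Most proteasome genes varied less between arrays of a sex than the median tested probeset. The RNA of each embryo was amplified before labelling, and no embryo was measured again on another array. The SDs therefore hold noise of amplification and array together with differences between embryos, and the parts were not separated. The pooled SD of log2 signal within a sex had a median of 0.17 over the 37 genes, beside 0.30 over all tested probesets, and also over the autosomal ones, and 31 genes were below that median. Of the 37, 26 were in the lowest 25% of all tested probesets and 13 in the lowest 10%. Without the 4 embryos that stood apart, the medians were 0.17 and 0.29. Brightness moved with these values, since bright probesets varied less. Among the brightest 10% of tested probesets, from a mean signal of 4922 up, 21 genes had a median SD of 0.14, beside 0.15 for all 1460 probesets of that brightness, and 12 of the 21 were below the latter. In the next 10% by signal, 4 genes had a median of 0.22, beside 0.20. In the 10% after that, 5 genes had a median of 0.18, beside 0.23. The low spread is therefore not shown to be particular to proteasome genes.

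The most even genes were PSMD14 (SD 0.07, the 12th lowest of all tested probesets), PSMC2 (0.09) and PSMD7 (0.09). The widest were PSMD2 (0.93), PSMB5 (0.65) and PSMG2 (0.45). The second PSMD2 probeset had an SD of 0.30, so the width of the first was not shared by both. The 7 alpha ring genes ran from 0.09 to 0.17. All 7 were among the brightest 10% of probesets, and 2 of them, PSMA1 and PSMA2, were above the median of 0.15 at that brightness. The core chaperones, which were dimmer, ran from 0.16 for PSMG1 to 0.45 for PSMG2 in the probesets that stand for them. The dimmer PSMG4 probesets were at 0.36 and 0.74. The chaperonin genes TCP1 and CCT2 to CCT8, another large ring complex, had a median of 0.13 over 8 genes and 0 calls.

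**Figure D3:**
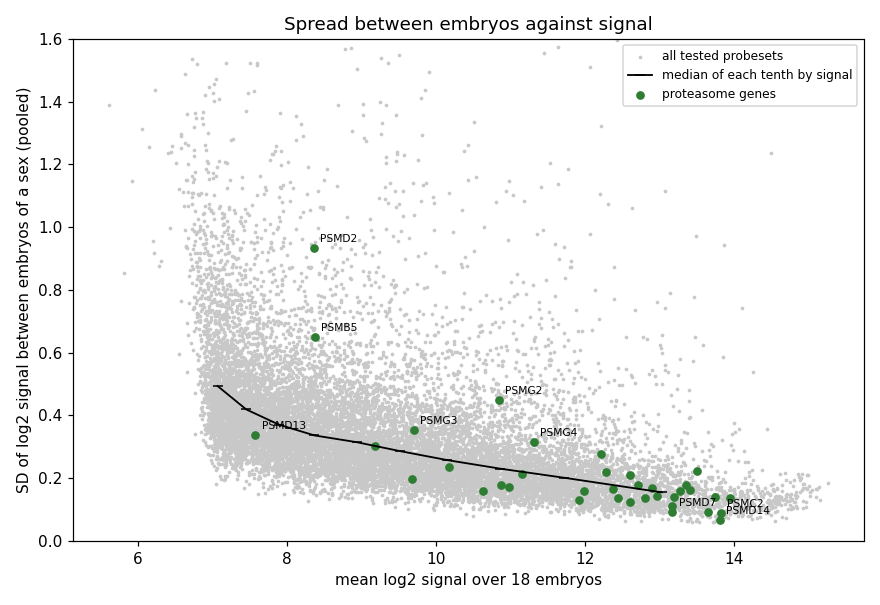
Pooled within-sex SD of log2 signal against mean log2 signal for all tested probesets (grey) and the 37 proteasome genes (green), with medians over 10 bins of signal as a line; 42 probesets lie above the axis. Most proteasome genes sit among bright probesets close to the line, while PSMD2, PSMB5 and PSMG2 lie well above it.

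**Figure D4:**
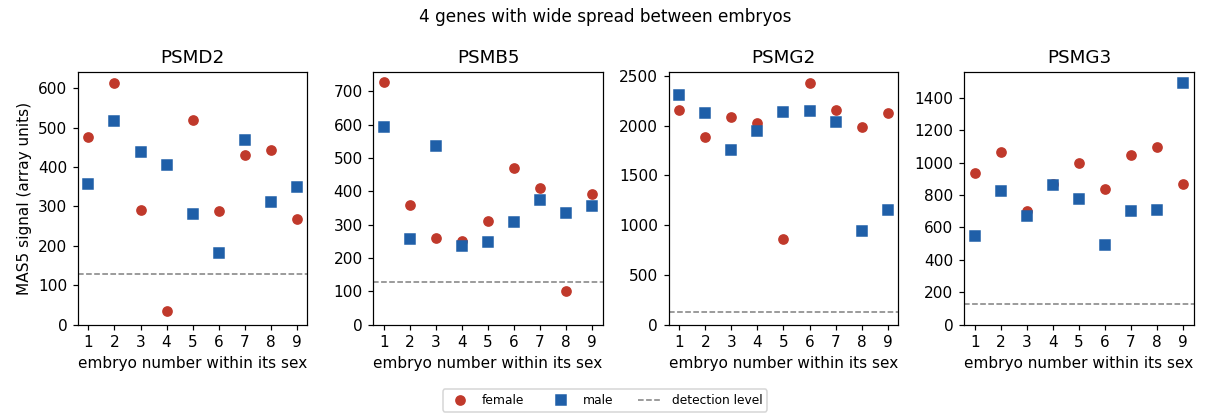
MAS5 signal of PSMD2, PSMB5, PSMG2 and PSMG3 in each embryo, numbered within its sex (female red circles, male blue squares, detection level dashed). Single embryos set the range of PSMD2 (female 4 at 35.4) and PSMG3 (male 9 at 1491), and 3 embryos lie apart for PSMG2.

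To follow core and regulatory particle through the embryos, each gene's log2 signal was taken as a deviation from its own mean over the 18 embryos and averaged over 13 core genes (PSMA and PSMB) and 13 regulatory genes (PSMC, with base and lid PSMD). These averages were described without a test. The core ran from -0.10 to 0.14 in females and from -0.15 to 0.14 in males, with an SD within a sex of 0.08. The regulatory particle ran from -0.23 to 0.14 in females and from -0.10 to 0.07 in males, with an SD of 0.09. Over both, the SD was 0.07. The same average over the chaperones, activators and inhibitor ran from -0.03 to 0.10 in females (mean 0.04). In males it ran from -0.18 to 0.02 (mean -0.04), with an SD within a sex of 0.05. The ranges overlapped, and this average includes PSMG3 and PSMD10, whose sex differences were farthest from 0. Its value of -0.18 was that of male 8, one of the 4 embryos that stood apart. The next lowest was male 2 at -0.06. Male 1 and female 5 were highest for the core, each with 10 of the 13 genes above their own mean. Male 8 and female 9 were lowest, with 4 and 2 of 13. These 2 belong to the 4 embryos that stood apart. Of the other two, male 5 was at -0.09 and male 6 at 0.04, with 8 of 13 genes above their mean. The 4 had a median core deviation of -0.10, and the other 14 of 0.00. The count of genes above their mean did not always follow the core average. Females 4 and 6 and male 2 also had 10, at averages of 0.05, 0.09 and 0.02. Female 1 was at 0.07 with 5 genes, and female 8 at -0.07 with 9. The dim and widely spread PSMB5 is included in these averages. Its lowest signal, 99.6, was in female 8 and its highest, 727, in female 1. The core average without PSMB5 was not computed.

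The balance of the particles, core minus regulatory, was 0.01 ± 0.13 (SD, n = 9) in females and -0.01 ± 0.09 in males. Its mean was lower in males by 0.01, far less than the SD within a sex of 0.11. Without the 4 embryos the difference, male minus female, was 0.01. The widest embryo was female 4, at 0.28, in which PSMD2 was under the detection level, and all others lay between -0.14 and 0.13. This value rested on that gene. Without PSMD2, a choice made after seeing its values, female 4 was at 0.03 and the 18 embryos ran from -0.13 to 0.15, with an SD within a sex of 0.08 and a regulatory SD of 0.06. The widely spread PSMB5 stayed in the core average here. The median correlation over the 78 pairs of core genes was 0.17 within sex, and 59 pairs were positive. For the 78 pairs of regulatory genes it was 0.04 (41 positive), for the 169 pairs across the particles 0.08, and over pairs of all tested probesets 0.0035. The pairs share the 18 arrays and their scaling. The pairs of all tested probesets were not matched for brightness, and their share of positive pairs was not computed. Without the 4 embryos that stood apart, the medians were 0.06 for the core, 0.003 for the regulatory particle and 0.0019 over pairs of all tested probesets. These correlations describe the arrays and were not tested.

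**Figure D5:**
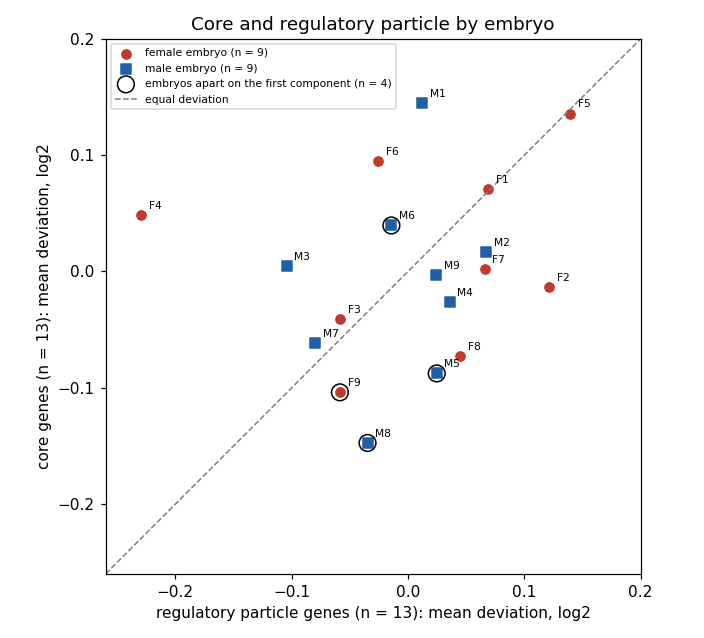
Mean log2 deviation of 13 core genes against that of 13 regulatory particle genes in each embryo (F, female; M, male), with the line of equal deviation dashed and the 4 embryos that stood apart circled. Female 4 lies far to the left with a regulatory value of -0.23, which is 0.02 without PSMD2, and no separation of the sexes is seen in either average.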

How the data were processed

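The authors hybridised 1 array per embryo and deposited probeset intensity values made with MAS5, a method of background correction, summary over probe pairs and scaling to a common array mean. These were used as log2 with no added constant. Left out were 96 control probesets and, from gene statements, probesets annotated with several genes. The level of 128 was set so that 38% of probesets would pass, about the share kept by present calls in the methods. It is a chosen cut and not a measured limit of detection, and present calls were not used here. Gene names came from GEO's platform annotation, which gives 1 symbol for 27178 probesets, several for 177 and none for 11180. Sexes were compared with limma 3.58.1 in R 4.3.3 (lmFit and eBayes, a coefficient for sex, 2-sided), with Benjamini-Hochberg adjustment over all 14598 tested probesets. Tables were handled with pandas 2.3.3. The SAM test of the methods was not run. Each embryo gave 1 array, so the number of embryos limits the precision. With no repeat array of any embryo, an SD within a sex cannot tell differences between embryos from amplification or array noise.

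Data of the same size were simulated with the means and within-sex SDs of all tested probesets, and 50 random probesets were changed at each fold. On these, limma found 3, 28, 43 and 49 at 1.3-, 1.5-, 2- and 4-fold, with 3 false calls.

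Genes named in full were, by rule, those called, the catalytic subunits, PSMD14, the 3 largest and 3 smallest SDs, the 3 largest sex differences, activators, the inhibitor and the PSMG chaperones. The members and lists were chosen with earlier results of these data known. Alternatives were quantile normalization, an added constant, other filters, an intensity trend, a replicate block, all probesets of a gene, and leaving out embryos.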

Additional observations from a re-analysis of the deposited data

Results flagged for a closer look

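Embryos far from the rest of their sex were looked for in 80 groups of 9, with chance marking about 1 in 20 of them, or 4. There were 6. They are given as values, and the cause was not tested. PSMD2 was 35.4 in female 4, against 267 to 612 in the other females. PSMG2 was 857 in female 5, against 1885 to 2426. PSMG3 was 1491 in male 9, against 491 to 861 in the other males. PSMC2 was 17621 in male 1, against 13852 to 15565. Female 9, an embryo that stood apart on the first principal component, was low for both PSMA6 (12412, against 15210 to 17047) and PSMD14 (13253, against 14253 to 15249).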

How the results depend on the processing

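Over 26 alternatives, 0 proteasome probesets were called, and the lowest adjusted p was 0.0676 (PSMG3 at -0.44, without male replicate 9). For the 14 genes named by rule, 364 values under alternatives kept their side of the threshold, and 21 uncalled estimates changed sign (of PSMB5, PSMD2, PSMD7, PSMD14, PSMG1, PSMG2 and PSMG4). Without the 4 embryos that stood apart, the estimate was 0.43 for PSMD2, 0.22 for PSMB5 and -0.15 for PSMB7. It was -0.17 for PSMG4 and -0.22 for PSMG3, and none of these was called. The SD over both particles fell from 0.0659 to 0.0512 when all tested probesets of a gene were averaged. Leaving out 1 embryo at a time gave 0 calls throughout, a sex difference in balance of -0.03 to 0.02, an SD of 0.06 to 0.07 and a median absolute difference of 0.04 to 0.07. With the replicate number as a block, 0 proteasome probesets were called (323 male-higher and 35 female-higher over all). Same-numbered embryos correlated at -0.24 to 0.20, with 4 of 9 pairs over 0.1 and 3 of 18 embryos closest to their own number. No pairing by number was used in the main fit, and its absence was not tested. Medians over genes, and only genes at 10 times the detection level, were alternatives chosen after seeing the data, and gave balance differences of -0.01 and 0.00. Leaving out PSMD2, also added later, gave 0.01. With 9 embryos a sex, differences under 1.5-fold were often missed on data simulated with the SDs of all tested probesets. The median SD was 0.30 over those probesets and 0.17 over the proteasome genes. The simulated counts are therefore not a detection rate for the proteasome genes.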
